A study of Mus musculus with 9 samples.

Results

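Transcripts that mark circulating red cells and neutrophils were measured in whole mouse hippocampus. The 8 genes are Alas2, Slc4a1, Epb42 and Fech, named for red cells, and S100a8, S100a9, Ngp and Camp, named for neutrophils. They are 8 of the 18820 genes measured. The 8 names were chosen with earlier results of these arrays known, so the tests on them are no independent support for a pattern already seen. The probe set of each gene was selected on the highest mean signal over the 9 arrays, and as each of the 8 had only 1 probe set annotated to a single gene, no choice between probe sets was made.

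The samples fall into 3 groups of 3 arrays. In the Surgery+Maresin1 group, C57BL/6 mice received Maresin 1, a mediator derived from an omega-3 fatty acid and known for its part in the resolution of inflammation, and then underwent a tibia fracture. In the Surgery group, mice of the same strain underwent the fracture without Maresin 1. The Control group is labelled only as control mice, with no word on anaesthesia, sham operation or vehicle. All mice were 12 to 14 weeks old, hippocampi were collected 72 h after surgery, and 6 µg of total RNA was labelled per array. The labels call the 3 arrays of a group biological replicates and do not say whether an array holds tissue of 1 mouse or of several. Whether the vessels were flushed before dissection was not stated in the labels read here. The series title names neuroinflammation in a model of perioperative neurocognitive disorders, and the 8 genes bear on how much blood, or how many blood cells, a sample held.

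Mature mouse red cells have no nucleus, and their remaining RNA is dominated by globin transcripts. Alas2 encodes the erythroid form of the enzyme that starts haem synthesis, and Fech encodes ferrochelatase, which inserts iron in the last step of the same pathway and is needed in every cell that makes haem. Slc4a1 encodes band 3, the anion exchanger of the red cell membrane, and Epb42 encodes protein 4.2, which ties band 3 to the membrane skeleton. S100a8 and S100a9 encode the partners of calprotectin, an abundant cytosolic protein of neutrophils. Ngp and Camp encode granule proteins, Camp being the precursor of the antimicrobial peptide cathelicidin, and their transcripts are made mostly while neutrophils mature in bone marrow. The hippocampus is densely vascularised, so residual blood is a known part of unflushed tissue. In bulk tissue, fewer cells of a type and less RNA per cell cannot be told apart.

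RefSeq promoter sequence on GRCm38.p6 was found for 6 of the 8 genes, all but Slc4a1 and Fech. The 250 bases before the annotated start are shown for 2 red cell and 2 neutrophil genes, because red cell genes are known targets of the factor GATA1 and granulocyte genes of C/EBP factors, and the 4 differ in which of these letters they hold. Capitals mark every match, on either strand, to AGATAA (the GATA1-type motif), CACCC (the box bound by KLF1) and TTNNGNAA (the C/EBP-type motif), and, on the forward strand, to TATAAA. Each sequence runs 5′ to 3′ in the direction of its gene.
Alas2, chrX:150547167-150547416, plus strand: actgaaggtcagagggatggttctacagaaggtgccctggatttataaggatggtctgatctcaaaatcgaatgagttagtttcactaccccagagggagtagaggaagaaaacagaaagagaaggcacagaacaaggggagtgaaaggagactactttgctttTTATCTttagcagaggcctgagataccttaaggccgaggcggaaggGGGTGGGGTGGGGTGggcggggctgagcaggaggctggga
Epb42, chr2:121036878-121037127, minus strand: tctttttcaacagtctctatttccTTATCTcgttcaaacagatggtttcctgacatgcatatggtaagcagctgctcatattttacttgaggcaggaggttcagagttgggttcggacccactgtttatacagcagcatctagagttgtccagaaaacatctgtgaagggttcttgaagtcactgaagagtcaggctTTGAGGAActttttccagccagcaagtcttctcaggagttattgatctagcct
S100a8, chr3:90668821-90669070, plus strand: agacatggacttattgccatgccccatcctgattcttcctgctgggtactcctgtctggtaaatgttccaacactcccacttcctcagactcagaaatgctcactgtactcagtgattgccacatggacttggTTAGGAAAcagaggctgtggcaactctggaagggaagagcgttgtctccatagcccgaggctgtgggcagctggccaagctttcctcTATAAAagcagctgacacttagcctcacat
S100a9, chr3:90695722-90695971, minus strand: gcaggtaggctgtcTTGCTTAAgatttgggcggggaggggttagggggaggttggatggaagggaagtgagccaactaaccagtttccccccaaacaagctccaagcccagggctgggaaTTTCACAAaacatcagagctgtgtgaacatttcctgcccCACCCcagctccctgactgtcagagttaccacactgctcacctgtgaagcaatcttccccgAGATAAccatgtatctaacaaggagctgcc

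Alas2 held 1 AGATAA and 3 adjoining CACCC matches on the minus strand, the latest of them ending 26 bases before the start. Epb42 held 1 AGATAA and 1 TTNNGNAA. S100a8 held TATAAA and 1 TTNNGNAA, and S100a9 held 2 TTNNGNAA, 1 CACCC and also 1 AGATAA. Of the 2 neutrophil genes not printed, Ngp held 3 TTNNGNAA and Camp 2 CACCC. Over all 27025 promoters of the table, AGATAA was present in 10.3%, CACCC in 51.3%, TTNNGNAA in 36.9% and TATAAA in 8.12%. A match is a description of the letters in this window.

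Values are given as the deposited linear signal of the probe set and, for comparisons, as a level on a log2 scale. The level is log2 of the signal after quantile normalisation and addition of 16, so that a difference of 1 stands for 2-fold among bright genes and understates the fold of dim ones. Array medians of the deposited signal differed by up to 1.85-fold (54.1 to 100), and each array had between 92 and 244 probe sets at 0. Background was judged from 990 olfactory receptor genes, a family that is nearly silent in brain: 95% of them had a mean level below 5.86, the background guide, and 71.0% of all genes had a mean above it. Control replicates 2 and 3 stood apart from the other 7 arrays in choroid plexus transcripts, which come from the tissue that makes cerebrospinal fluid: the summed linear level of its 19 measured list genes was 1598 to 1787 in Surgery+Maresin1 and 1506 to 1649 in Surgery, against 1380 to 25224 in Control. Results that rest on these arrays are given below also with Control replicate 1 as the sole control where that changes them.

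The 8 genes fell into bright, intermediate and dim ones. Fech lay above all 990 olfactory receptor genes on all 9 arrays, and Alas2 lay above 95% of them on each of the 9. The other 6 were at background. Slc4a1, Epb42, S100a8 and Ngp exceeded 95% of these genes on 0 arrays, S100a9 did so on 1 (Surgery replicate 2) and Camp on 1 (Control replicate 1). Ngp lay above only 31.9% to 57.0% of the olfactory receptor genes of an array. A level this low has no order against other dim probe sets, and levels of different probe sets are not compared as amounts of RNA.

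**Figure D1:**
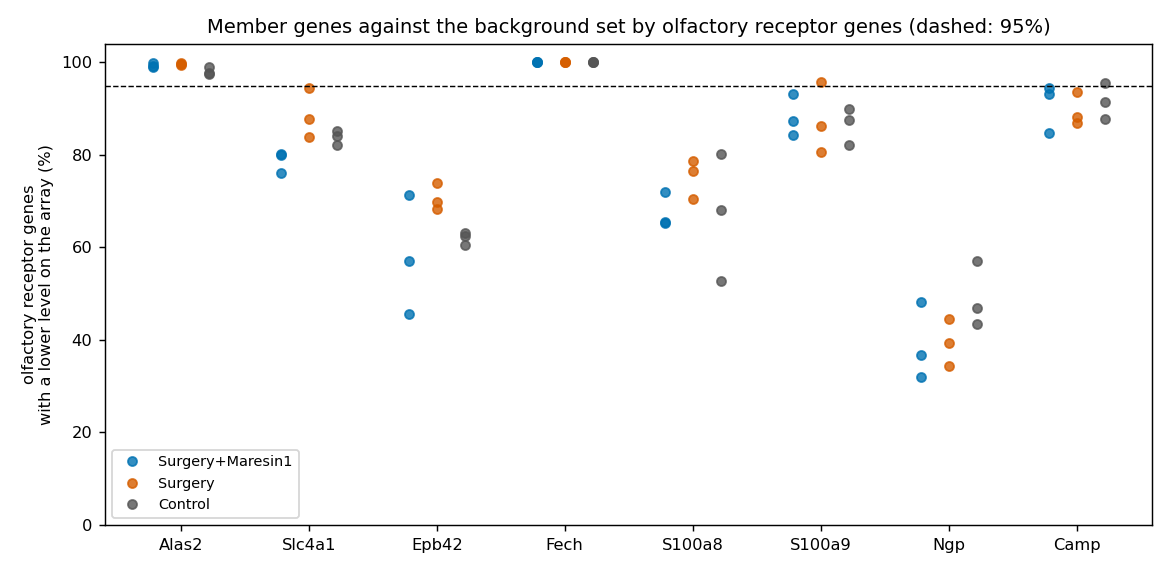
Share of the 990 olfactory receptor genes (%, vertical axis) whose level on the same array lay below that of each member gene (horizontal axis), with 1 point per array coloured by group and a dashed line at 95%. Fech sits at 100% and Alas2 between 97.5% and 99.9%, while Ngp lies between 31.9% and 57.0%.

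None of the 8 genes passed an adjusted p of 0.05 in any of the 3 comparisons, in a limma model over all 18820 genes and 9 arrays with Benjamini-Hochberg adjustment over all genes. The same fit called 0 of 18820 genes between Surgery and Control (0%), 0 between Surgery+Maresin1 and Surgery (0%) and 16 between Surgery+Maresin1 and Control (0.085%). At an unadjusted p under 0.05 it held 1168, 1065 and 2160 genes in these 3 comparisons, and 1 member in each: Alas2 in both comparisons with Control and Slc4a1 between Surgery+Maresin1 and Surgery. The 3 comparisons share arrays, so each is given by its own values.

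Alas2 was the member that varied most. Its deposited signal was 159, 68.0 and 103 in Surgery+Maresin1 replicates 1, 2 and 3, and 73.4, 262 and 130 in Surgery replicates 1, 2 and 3. In Control replicates 1, 2 and 3 it was 94.9, 60.3 and 54.96. After normalisation the 3 Surgery+Maresin1 arrays stood at 7.44, 6.54 and 6.76 on the log2 scale and the 3 Surgery arrays at 6.93, 7.93 and 7.04. The 3 Control arrays, at 6.50, 6.29 and 6.26, were the 3 lowest, and Surgery replicate 2 was the highest array, followed by Surgery+Maresin1 replicate 1. The SD of Alas2 over the 9 arrays was larger than that of 99.7% of all genes.

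The Alas2 level averaged 7.30 ± 0.55 in Surgery and 6.35 ± 0.13 in Control (SD, n = 3 each). The difference was 0.95 with an SE of 0.25 and a 95% interval of 0.41 to 1.49, or 1.94-fold on the scale of signal plus 16, with an adjusted p of 0.63 in limma. The 3 Surgery arrays all lay above the 3 Control arrays, and the gene ranked 63rd of 18820 by p. The difference was 0.64 without Surgery replicate 2 and 0.81 with Control replicate 1 as the sole control, so the order of the means was the same while the size rested in part on 1 Surgery array. When each array was instead scaled to a common median, the difference was 0.99 and passed the test (adjusted p = 0.0149 in limma), in a fit that called 37 genes and in which the median difference of all genes was 0.10.

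In mice given Maresin 1, the Alas2 level averaged 6.91 ± 0.47, against 7.30 ± 0.55 in Surgery (SD, n = 3 each). The difference was -0.39 with an SE of 0.25 and an interval of -0.93 to 0.15 (adjusted p = 0.876 in limma). The arrays of these groups overlapped, and without Surgery replicate 2 the difference was -0.07. Against Control, at 6.35 ± 0.13, the same Surgery+Maresin1 arrays were 0.56 higher (SE 0.25, interval 0.02 to 1.11, adjusted p = 0.415), and 0.30 higher without Surgery+Maresin1 replicate 1. All 3 of them lay above the 3 Control arrays, the nearest pair being 6.54 in Surgery+Maresin1 replicate 2 and 6.50 in Control replicate 1.

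Fech, the other member well above background, hardly varied. Its deposited signal was 709, 650 and 641 in Surgery+Maresin1 replicates 1, 2 and 3 and 501, 803 and 826 in the Surgery replicates, against 921, 501 and 598 in the Control replicates. Control replicate 1, the array with the highest median signal, also had the highest value here. After normalisation the level averaged 9.46 ± 0.07 in Surgery+Maresin1, 9.48 ± 0.03 in Surgery and 9.42 ± 0.02 in Control (SD, n = 3 each). Only 2.71% of genes had a smaller SD over the 9 arrays. The difference between Surgery and Control was 0.06 (SE 0.05, interval -0.06 to 0.18, adjusted p = 0.885 in limma), although the 3 Surgery arrays all lay above the 3 Control arrays. With each array scaled to a common median the Fech difference was 0.23, in the fit whose median difference of all genes was 0.10, and its adjusted p was 0.704.

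Band 3 and protein 4.2 were read at background. Slc4a1 had a deposited signal of 26.8, 20.4 and 32.3 in Surgery+Maresin1 replicates 1, 2 and 3 and 23.0, 41.2 and 33.4 in the Surgery replicates, against 34.7, 28.1 and 27.8 in the Control replicates. Its normalised level was 5.38 ± 0.06 in Surgery+Maresin1, 5.65 ± 0.15 in Surgery and 5.49 ± 0.05 in Control (SD, n = 3 each). The 3 groups did not overlap: every Surgery array was above every Control array, and every Surgery+Maresin1 array was below every Control array, in both cases with gaps far smaller than the spread of the Surgery group. Surgery differed from Control by 0.16 (SE 0.10, adjusted p = 0.817 in limma) and Surgery+Maresin1 from Surgery by -0.27 (SE 0.10, interval -0.48 to -0.06, adjusted p = 0.859). Surgery replicate 2, at 5.83, was the highest array here as well. Without it Surgery differed from Control by 0.08 and Surgery+Maresin1 from Surgery by -0.18.

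Epb42 had a deposited signal of 23.0, 12.4 and 21.2 in Surgery+Maresin1 replicates 1, 2 and 3 and 17.8, 22.4 and 21.9 in the Surgery replicates, against 22.8, 19.7 and 18.9 in the Control replicates. Its level averaged 5.10 ± 0.15 in Surgery+Maresin1, 5.26 ± 0.05 in Surgery and 5.15 ± 0.03 in Control (SD, n = 3 each). The Surgery arrays lay above the Control arrays by a mean of 0.11 (SE 0.09, adjusted p = 0.884 in limma), with no overlap. The Surgery+Maresin1 arrays covered the Control range and overlapped with Surgery, running from 4.94 in replicate 2, the lowest of all 9, to 5.25 in replicate 1, and differed from Surgery by -0.16 (SE 0.09, adjusted p = 0.859).

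All 4 red cell genes were thus higher on average in Surgery than in Control after quantile normalisation. Their normalised levels showed no overlap between the 6 arrays for any of the 4, although none passed the adjusted test. In the deposited signals, which were not equalised between arrays, the Surgery and Control arrays of all 4 overlapped. For Alas2, Surgery replicate 1 (73.4) lay below Control replicate 1 (94.9). The nearest Surgery and Control arrays of Alas2 stood at 6.93 and 6.50. Those of Fech (9.453 and 9.437), Slc4a1 (5.546 and 5.531) and Epb42 (5.202 and 5.188) stood much closer together. Over all genes, 11.5% showed no overlap in this comparison. The median difference of the 4 was 0.14, against 0.02 over all genes. Between Surgery+Maresin1 and Surgery all 4 had a negative difference, with a median of -0.21 against -0.02 over all genes, and 1 of the 4, Slc4a1, showed no overlap, where 13% of all genes did. Between Surgery+Maresin1 and Control, Alas2 and Fech were higher and Slc4a1 and Epb42 lower, with no overlap for Alas2 and Slc4a1, where 14.3% of all genes showed none. With 3 arrays a group and 2 of the 4 genes at background, these counts describe the 9 arrays.

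**Figure D2:**
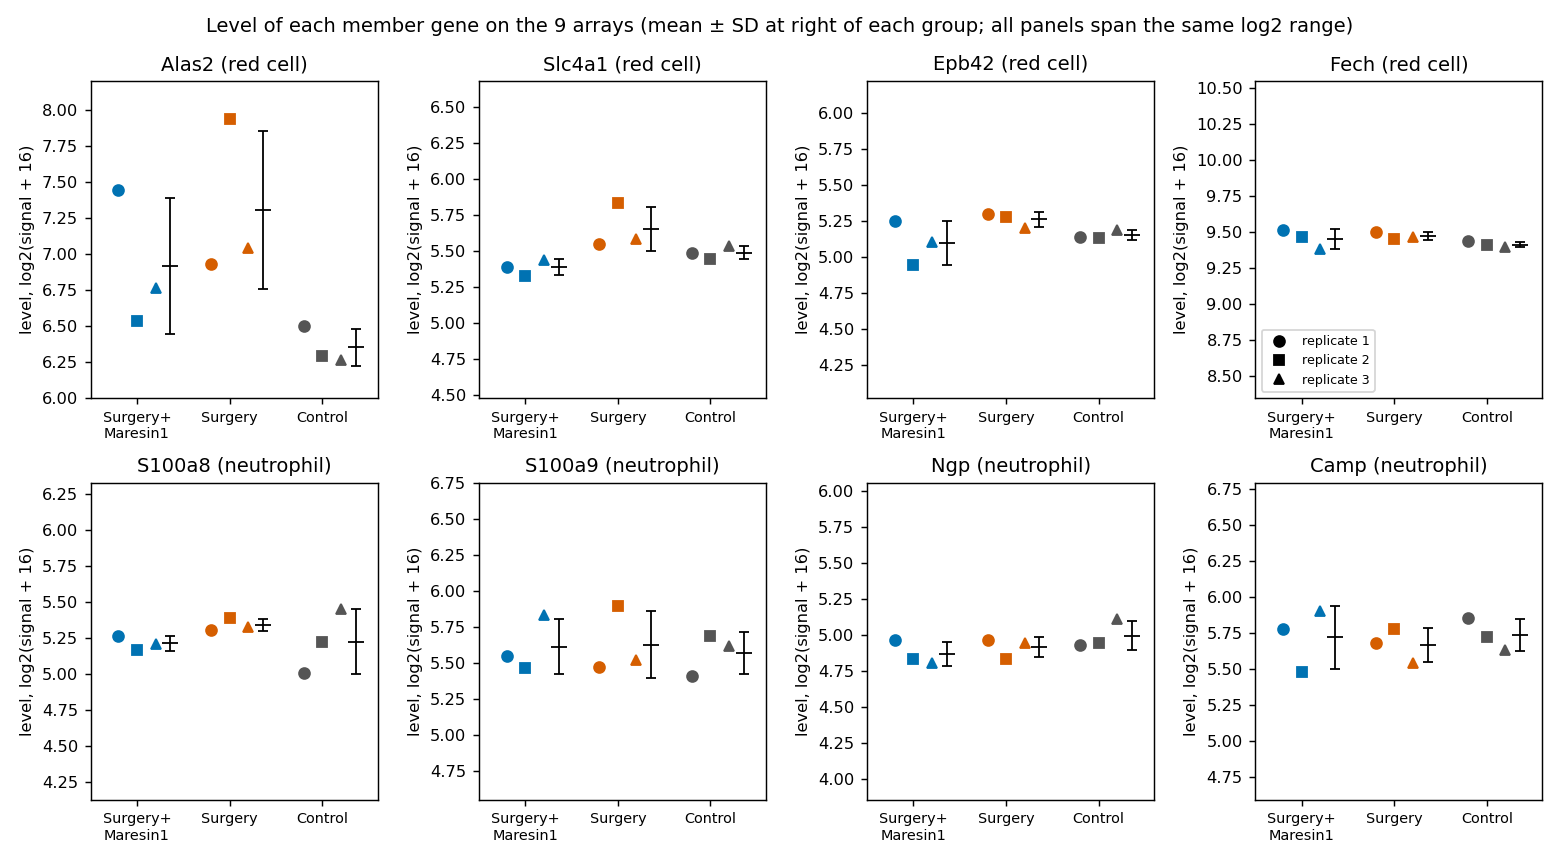
Level of each member gene, log2 of normalised signal plus 16 (vertical axis, the same span in each panel), on the 9 arrays by group, with the replicate shown by symbol and the group mean and SD drawn to the right (n = 3). Alas2 spans 6.26 to 7.93 with Surgery replicate 2 highest, whereas Fech spans 9.38 to 9.52.

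The calprotectin genes did not separate Surgery from Control. S100a8 had a deposited signal of 23.4, 16.6 and 24.3 in Surgery+Maresin1 replicates 1, 2 and 3 and 17.9, 25.5 and 25.1 in the Surgery replicates, against 19.1, 22.03 and 25.5 in the Control replicates. Its level was 5.21 ± 0.05 in Surgery+Maresin1, 5.34 ± 0.04 in Surgery and 5.22 ± 0.22 in Control (SD, n = 3 each). The Control arrays alone covered the range of all 9, from 5.001 to 5.449. Surgery differed from Control by 0.11 (SE 0.11, adjusted p = 0.893 in limma). Surgery+Maresin1 differed from Surgery by -0.13 (SE 0.11, adjusted p = 0.900), with no overlap between these arrays, as for 13% of all genes.

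S100a9 had a deposited signal of 31.6, 23.8 and 48.3 in Surgery+Maresin1 replicates 1, 2 and 3 and 21.4, 44.1 and 31.3 in the Surgery replicates, against 31.8, 36.1 and 30.1 in the Control replicates. Its level averaged 5.61 ± 0.19 in Surgery+Maresin1, 5.63 ± 0.23 in Surgery and 5.57 ± 0.15 in Control (SD, n = 3 each). Surgery replicate 2, at 5.89, was the highest array, as it was for Alas2 and Slc4a1. The differences of 0.06 between Surgery and Control and of -0.01 between Surgery+Maresin1 and Surgery were smaller than the spread within each group.

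The arrays of the granule genes overlapped between all groups. Ngp had a deposited signal of 16.3, 10.6 and 13.3 in Surgery+Maresin1 replicates 1, 2 and 3 and 11.7, 12.1 and 15.6 in the Surgery replicates, against 17.3, 15.6 and 17.3 in the Control replicates. Its level was 4.87 ± 0.08 in Surgery+Maresin1, 4.92 ± 0.07 in Surgery and 4.999 ± 0.099 in Control (SD, n = 3 each), a difference of -0.08 (SE 0.09, adjusted p = 0.915 in limma) between Surgery and Control. The arrays of these groups overlapped.

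Camp had a deposited signal of 39.3, 24.2 and 52.0 in Surgery+Maresin1 replicates 1, 2 and 3 and 26.2, 39.0 and 32.1 in the Surgery replicates, against 52.0, 37.3 and 30.6 in the Control replicates. Its level was 5.72 ± 0.22 in Surgery+Maresin1, 5.67 ± 0.12 in Surgery and 5.74 ± 0.11 in Control (SD, n = 3 each). Surgery differed from Control by -0.07 (SE 0.12, adjusted p = 0.951 in limma) and Surgery+Maresin1 from Surgery by 0.05 (SE 0.12, adjusted p = 0.962), and all groups overlapped.

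Of the 4 neutrophil genes, S100a8 and S100a9 were thus higher and Ngp and Camp lower in Surgery than in Control, with a median difference of -0.01 against 0.02 over all genes and overlapping arrays for all 4. The 95% intervals of these 4 differences reached at most 0.35 upward, on a scale that understates the change of dim genes. With all 4 at background, a small change was not detectable with these probe sets. With Control replicate 1 as the sole control, S100a8 and S100a9 were 0.34 and 0.22 higher in Surgery than in Control and 0.21 and 0.21 higher in Surgery+Maresin1 than in Control, and neither passed the adjusted test. The median over the 4 was -0.03 between Surgery+Maresin1 and Surgery and -0.01 between Surgery+Maresin1 and Control.

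**Figure D3:**
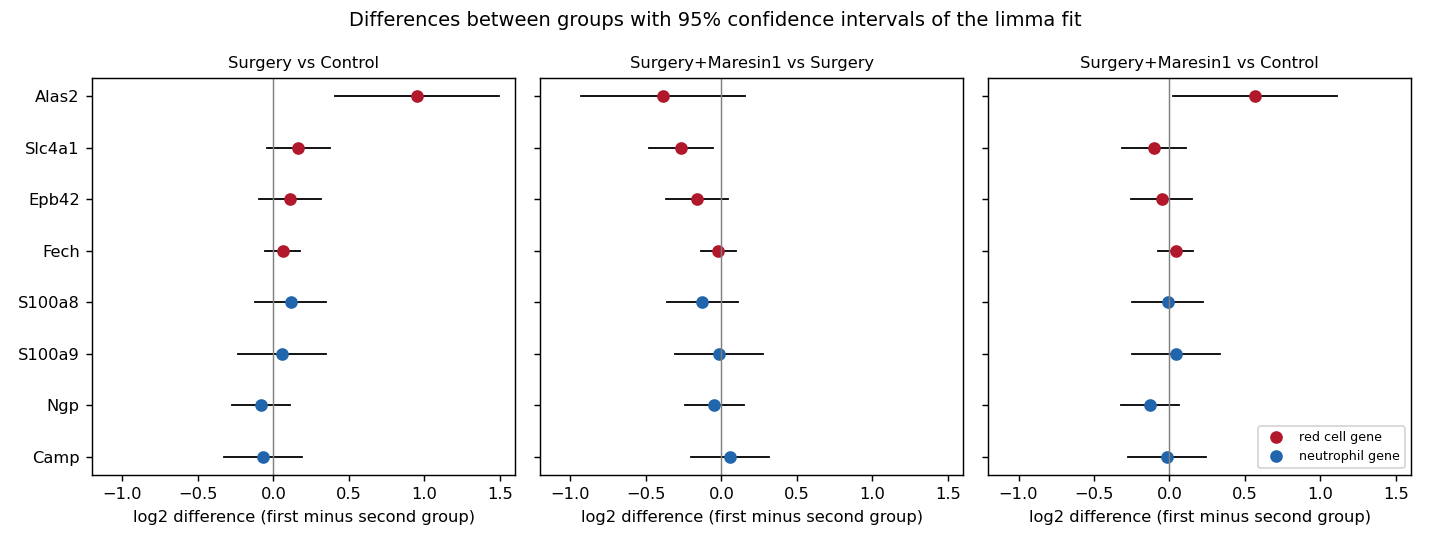
Difference in level (log2, horizontal axis) of each member gene for the 3 comparisons, in each panel the group named before "vs" minus the one named after it, with 95% confidence intervals of the limma fit. Alas2 stands at 0.95 between Surgery and Control, and the interval of Fech in that panel runs from -0.06 to 0.18.

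Globins, the main RNA of red cells, were read here by 4 probe sets annotated to several genes, 10375051 and 10375058 to the alpha globin genes Hba-a1 and Hba-a2, 10566254 to the beta globin genes Hbb-b1, Hbb-b2 and Hbb-bt, and 10566258 to Hbb-b1 and Hbb-b2. They were taken from a limma fit over all 35556 probe sets, in which 0% of probe sets were called in each of the 3 comparisons. The alpha globin probe set 10375051 had a deposited signal of 2856, 1485 and 1666 in Surgery+Maresin1 replicates 1, 2 and 3 and 2051, 4545 and 2643 in the Surgery replicates, against 2593, 1824 and 1655 in the Control replicates. Surgery replicate 2 was the highest array for all 4 probe sets, and among Surgery+Maresin1 arrays replicate 1 was the highest.

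On the log2 scale the 4 globin probe sets were 0.54 to 0.59 higher in Surgery than in Control (SE 0.23 to 0.25, adjusted p = 0.875 for each in limma), with no overlap between the groups for 1 of the 4, 10375058. Without Surgery replicate 2 the differences were 0.35 and 0.36 for the alpha and 0.29 and 0.32 for the beta globin probe sets. They were lower in Surgery+Maresin1 than in Surgery, with differences of -0.52 and -0.56 for the alpha and -0.37 and -0.37 for the beta globin probe sets (adjusted p = 0.865 to 0.886). Without Surgery replicate 2 these were -0.33 and -0.37 for the alpha and -0.10 and -0.10 for the beta globin probe sets. Between Surgery+Maresin1 and Control the differences were 0.02, -0.01, 0.19 and 0.22, and without Surgery+Maresin1 replicate 1 they were -0.25, -0.29, -0.05 and -0.02. Control replicate 2 was the highest Control array for all 4, which was not the case for Alas2.

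Alas2 and the globin probe sets shared their 2 highest arrays. Over the 9 arrays the Pearson r was 0.83 and 0.82 with the alpha and 0.90 and 0.92 with the beta globin probe sets, with an adjusted p of 0.0277 to 0.036 by a two-sided exact permutation test over 32 relations of members with globin probe sets. Spearman's rho was 0.68 to 0.78, with an adjusted exact permutation p of 0.138 to 0.206. Without Surgery replicate 2 and Surgery+Maresin1 replicate 1, the 2 arrays farthest from the median of Alas2, r was 0.42 to 0.60, so the size of the relation rests on those arrays. After subtraction of the group means r over all 9 arrays was 0.84 to 0.90, a value not computed without those 2 arrays. Within Surgery+Maresin1 the order of the 3 arrays was the same for Alas2 and all 4 globin probe sets, whereas Surgery replicates 1 and 3, and Control replicates 1 and 2, stood in the opposite order. The 4 globin probe sets correlated with each other at 0.952 to 0.999 and count as 1 measure.

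Among the other members, Epb42 followed the alpha globin probe sets (r = 0.81 with each, adjusted exact permutation p = 0.036, rho 0.86 and 0.88 with adjusted p = 0.070), and r was 0.86 and 0.85 without the 2 arrays farthest from its median. Its r with the beta globin probe sets was 0.68 and 0.67 (adjusted exact permutation p = 0.160). Slc4a1 had r of 0.62 to 0.68 (adjusted exact permutation p of at least 0.160) and negative values without its 2 farthest arrays. Fech had r of 0.48 to 0.53 and the 4 neutrophil genes r between -0.26 and 0.45, none of which passed the adjustment. For S100a8, r was 0.36 to 0.45 over all arrays and 0.80 to 0.87 without Control replicates 1 and 3, its 2 farthest arrays. Epb42 lay at background on each array, and the part of background in its relation was not tested.

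**Figure D4:**
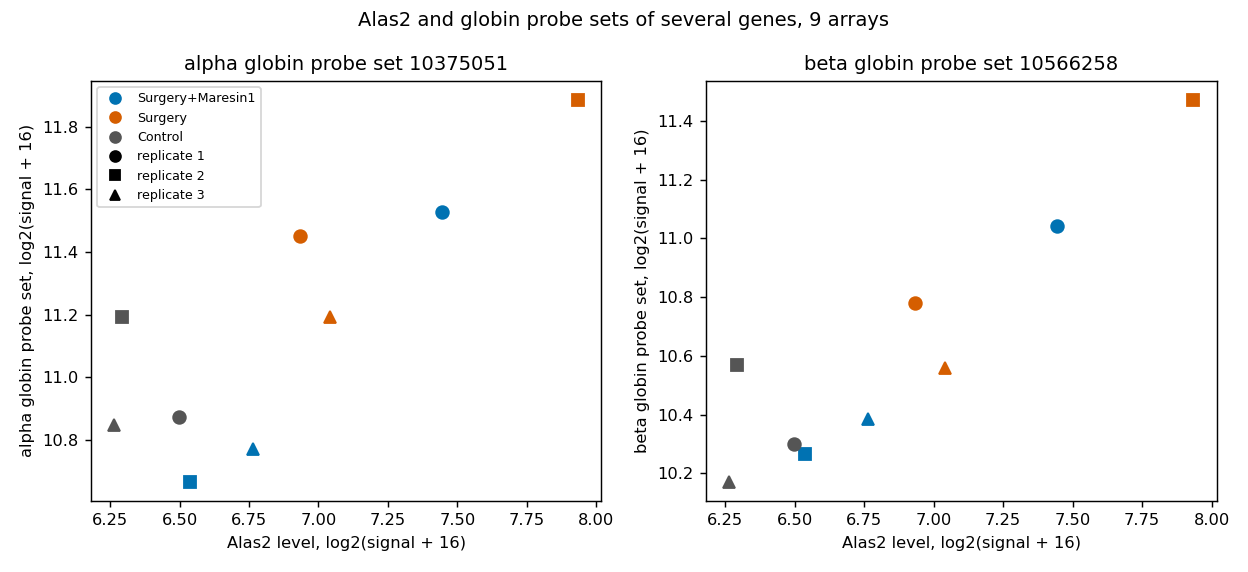
Level of Alas2 (log2 of normalised signal plus 16, horizontal axis) against an alpha (left) and a beta (right) globin probe set annotated to several genes (vertical axis), 1 point per array, coloured by group with the replicate as symbol. Surgery replicate 2 is highest on both axes in both panels (Alas2 level 7.93), Surgery+Maresin1 replicate 1 next (7.44), and the other 7 arrays lie at Alas2 levels of 6.26 to 7.04.

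The 8 members themselves formed 28 pairs, of which 20 had a positive r and 0 passed Benjamini-Hochberg adjustment of a two-sided exact permutation test (smallest adjusted p = 0.573, and 0 pairs at an unadjusted p under 0.05). The median r was 0.56 among the 6 pairs of red cell genes, 0.09 among the 6 pairs of neutrophil genes and 0.19 among the 16 mixed pairs. Alas2 and Slc4a1 had r of 0.60, which was -0.02 without Surgery replicate 2. S100a8 and S100a9, whose proteins form 1 complex, had r of 0.43, and Ngp and Camp had r of -0.23. With 6 of the 8 genes at background, a low r between them was not distinguishable from noise of the probe sets.

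The genes whose pattern over the 9 arrays was most like that of a member were found among the 13363 genes above the background guide, as a description with no test. For Alas2 they were Rsad2 (r = 0.967), Clec2d (0.963), Oasl2 (0.954), Apobec3 (0.95) and Prex2 (0.95), and these kept r of 0.815 to 0.919 without the 2 arrays farthest from the median of Alas2. The level of Rsad2 ranged from 5.88 to 6.62. For Fech the nearest were Naprt (0.929) and Ankrd27 (0.92), and for S100a9 Dnah12 (0.898) and Ctdspl (0.877). With 13363 candidates and 9 arrays, a high r was found for each of the 8 members: the highest per member lay between 0.898 and 0.983.

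The wider lists of blood cell genes were written with earlier results of these data known and are given by their counts. Of 35 measured red cell genes beside the members, 18 lay above the background guide, and 0 passed the adjusted test in any comparison, against 0% to 0.085% of all genes. Between Surgery and Control 25 of the 35 had a positive difference, with a median of 0.07 against 0.02 over all genes, and 2 of the 35 showed no overlap, where 58.4% of all genes were higher and 11.5% showed no overlap. Between Surgery+Maresin1 and Surgery 9 were higher and 26 lower, with a median of -0.05, and 7 showed no overlap, where 41.7% of all genes were higher and 13% showed no overlap. The erythroid genes Gata1, Klf1, Nfe2, Hemgn, Rhag, Kel and Trim58, of which Gata1 and Nfe2 also act in megakaryocytes, all had a mean level at background. The brightest, Slc2a1 (a glucose carrier that brain endothelium also expresses), had a mean level of 11.01, and Aqp1 is shared with the choroid plexus list. At least those 2 genes do not speak for red cells alone. How far the signal of the other list genes came from red cells was not tested, so the counts are no measure of blood by themselves.

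Of the red cell list genes above background, Slc25a37, the mitochondrial iron carrier mitoferrin 1, had a deposited signal of 178, 158 and 164 in Surgery+Maresin1 replicates 1, 2 and 3 and 119, 238 and 253 in the Surgery replicates, against 263, 145 and 140 in the Control replicates. Its level differed by 0.16 between Surgery and Control (SE 0.11) and by -0.22 between Surgery+Maresin1 and Surgery (SE 0.11), with overlapping groups in both. Slc25a38, the mitochondrial glycine carrier used at the start of haem synthesis, was 0.19 higher in Surgery than in Control (SE 0.07, adjusted p = 0.739 in limma) and also overlapped. Neither gene had its highest normalised level on Surgery replicate 2.

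The haem synthesis list holds both Alas2 and Fech and the enzymes between them. It also holds Alas1, Hmox1, Blvrb, Slc25a39 and Clpx, which are not steps between Alas2 and Fech. All 12 measured genes lay above background, 7 were higher and 5 lower in Surgery than in Control, the median difference was 0.05, and 0 passed the adjusted test. Alas1, the form of the first enzyme used outside the red cell lineage, differed by -0.03 between Surgery and Control (SE 0.06, interval -0.16 to 0.09), against 0.95 for Alas2. Alad, which joins aminolevulinate molecules, was 0.18 higher in Surgery+Maresin1 than in Control (SE 0.07, adjusted p = 0.354). The lowest differences of the list belonged to Slc25a39, -0.22 between Surgery and Control and -0.32 between Surgery+Maresin1 and Control. Its Control replicates 1, 2 and 3 stood at 9.84, 10.20 and 10.26. Surgery arrays ran from 9.80 to 9.97 and Surgery+Maresin1 arrays from 9.71 to 9.89. Control replicate 1 lay within both ranges, so these differences of Slc25a39 rested on Control replicates 2 and 3. Hmox1, the inducible enzyme that breaks haem down, differed by 0.11 (SE 0.13) between Surgery and Control and by -0.20 (SE 0.13) between Surgery+Maresin1 and Surgery.

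Of 33 measured neutrophil list genes beside the members, 8 lay above background and 0 passed the adjusted test. Between Surgery and Control 24 were higher and 9 lower, with a median of 0.06, and 5 showed no overlap, where 58.4% of all genes were higher and 11.5% showed no overlap. Between Surgery+Maresin1 and Surgery 6 were higher and 27 lower, with a median of -0.11 against -0.02 over all genes, and 4 showed no overlap, where 41.7% of all genes were higher and 13% showed no overlap. The defining granule genes Ltf, Elane and Mpo exceeded the background guide on 0 of 9 arrays, and their deposited signals stayed between 12.8 and 31.2. The summed linear level of the 33 genes was 1225 to 1489 in Surgery+Maresin1 and 1261 to 1971 in Surgery, against 1127 to 1224 in Control. The highest sums, 1971 on Surgery replicate 2 and 1489 on Surgery+Maresin1 replicate 3, fell on the arrays with the highest Lcn2 level (9.40 and 7.90). Sums without Lcn2 were not computed. The mean log2 deviation of the list, where 1 bright gene weighs less, was -0.06 to 0.05 in Surgery+Maresin1, 0.02 to 0.15 in Surgery and -0.10 to 0.01 in Control.

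The larger values in that list belonged to Lcn2, Pglyrp1 and Lyz2. Lcn2, lipocalin 2, an iron-scavenging granule protein that reactive astrocytes and endothelium also make, had a deposited signal of 29.2, 103 and 229 in Surgery+Maresin1 replicates 1, 2 and 3 and 21.5, 772 and 56.8 in the Surgery replicates, against 32.1, 15.6 and 16.6 in the Control replicates. It was 1.85 higher in Surgery than in Control (SE 0.80, adjusted p = 0.781 in limma). It was 1.65 higher in Surgery+Maresin1 than in Control (SE 0.80, adjusted p = 0.462 in limma). Its normalised levels did not overlap in either comparison, where 11.5% and 14.3% of all genes showed no overlap. The nearest arrays, Surgery replicate 1 (5.48), Surgery+Maresin1 replicate 1 (5.47) and Control replicate 1 (5.42), all lay below the background guide. In the deposited signals, replicate 1 of Surgery and of Surgery+Maresin1 lay below Control replicate 1. Without Surgery replicate 2 the Lcn2 difference between Surgery and Control was 0.65. Its highest array was again Surgery replicate 2, whereas Surgery+Maresin1 replicate 1, the next highest for Alas2, was the lowest of its group for Lcn2.

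Pglyrp1, a peptidoglycan recognition protein of neutrophil granules, had a deposited signal of 139, 98.9 and 134 in Surgery+Maresin1 replicates 1, 2 and 3 and 80.9, 192 and 175 in the Surgery replicates, against 121, 82.5 and 79.7 in the Control replicates. It was 0.60 higher in Surgery than in Control (SE 0.12, adjusted p = 0.483 in limma) and 0.38 higher in Surgery+Maresin1 than in Control (SE 0.12, adjusted p = 0.245), with no overlap in either, where 11.5% and 14.3% of all genes showed none. Lyz2, the lysozyme of granulocytes, monocytes and microglia, was 0.34 higher in Surgery than in Control (SE 0.22) with overlapping groups, and its highest level, 7.66, was on Surgery replicate 2, without which the Lyz2 difference was 0.02.

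Vessel genes, like the red cell genes, were higher on average in Surgery than in Control. All 16 measured endothelium genes had a positive difference between Surgery and Control, with a median of 0.34, 12 of the 16 showed no overlap, where 11.5% of all genes did, and 0 passed the adjusted test. Their summed linear level was 6235 to 7830 in Surgery+Maresin1 and 7024 to 7562 in Surgery, against 5669 to 5723 in Control. Of 14 pericyte and smooth muscle genes 13 had a positive difference between Surgery and Control, with a median of 0.24, 7 showed no overlap beside the same 11.5%, and 0 passed the adjusted test. The part of vessel content in the differences of Alas2 and the globins was not tested. Flt1, an endothelial receptor of vascular endothelial growth factor, stood at 9.20, 9.33 and 9.27 in Surgery replicates 1, 2 and 3 and at 8.87, 8.77 and 8.67 in the Control replicates. For Flt1 the 3 Surgery arrays lay above the 3 Control arrays, as for Alas2, but closer together than those of Alas2. Over the whole endothelium list the mean deviation from the 9-array mean was highest in Surgery+Maresin1 replicate 1 (0.23) and Surgery replicate 2 (0.18). The pericyte and smooth muscle list had the same 2 highest arrays (0.13 and 0.15), which were also the 2 highest for Alas2. These arrays were also the 2 highest for the monocyte list (0.09 and 0.24) and for the haem synthesis list (0.10 and 0.07), which holds Alas2. The match was thus not particular to vessel genes.

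The lists for other blood cells were partly above background. Of 12 measured T and NK cell genes 2 lay above the guide, of 9 B cell genes 3 and of 10 monocyte genes 3, and 0 passed the adjusted test in any comparison. The median differences between Surgery and Control were 0.09, 0.04 and 0.10. Of 13 measured platelet genes 9 lay above the guide, with a median difference of 0.03, and their lowest difference, -2.84, belonged to F5, a gene that choroid plexus also expresses. That difference rested on Control replicates 2 and 3, where F5 stood at 10.06 and 10.57. On Control replicate 1 it stood at 5.92, against 6.00, 5.92 and 6.12 on Surgery replicates 1, 2 and 3.

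**Figure D5:**
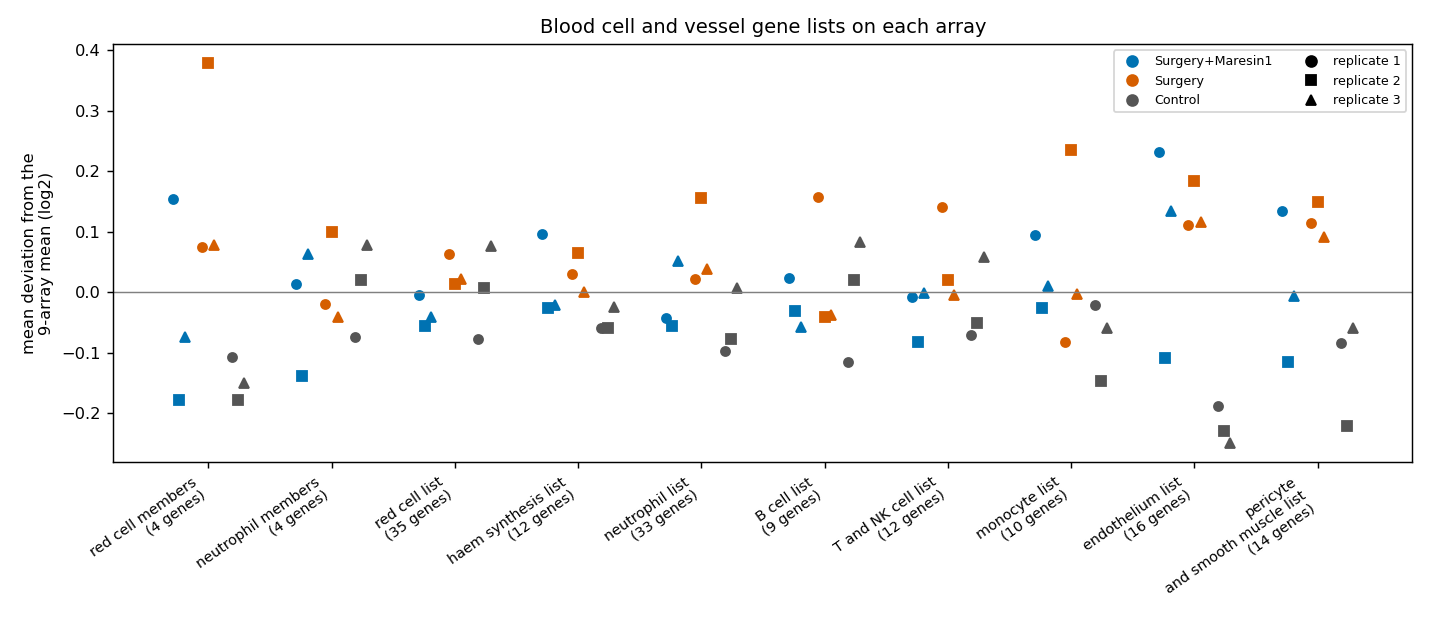
Mean over the genes of each list of the deviation of each array from the 9-array mean (log2, vertical axis), for the member genes and lists of blood and vessel genes (horizontal axis, with the number of genes), 1 point per array coloured by group with the replicate as symbol. Surgery replicate 2 stands at 0.38 for the 4 red cell members, and the 3 Control arrays lie between -0.25 and -0.19 for the endothelium list.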

How the data were processed

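Total RNA of 9 hippocampus samples was measured on an Affymetrix mouse array, and groups were taken from the sample titles. The deposited values are intensities on a linear scale, 1 per probe set and array. Per the submitters' processing notes, the authors made them in Affymetrix Expression Console. No version, algorithm or genome build is given in the sources used here. Deposited signals were not equal between arrays. They were therefore quantile normalised over 35556 probe sets, 16 was added and log2 was taken. Of the probe sets, 21218 name 1 gene, 1881 several and 12457 none in the probe table. Each of 18820 genes was read by its brightest single-gene probe set on average.

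Groups were compared with limma 3.58.1 in R 4.3.3, in a linear model over all 9 arrays with a variance prior that follows the level, and calls needed an adjusted p below 0.05 (Benjamini-Hochberg). Correlations were tested by exact permutation with NumPy 2.4.6, with ranks from SciPy 1.17.1. The scripts were tested on simulated data. Members and lists were chosen with earlier results of these data known. Genes outside the members were named by a rule, the smallest unadjusted p among list genes above the olfactory receptor level, and the genes most alike in pattern. The erythroid genes listed from Gata1 to Trim58, the granule genes, Alas1 and Hmox1 fall outside it and were named for their known roles. The globin fit over all probe sets, and leaving out arrays for the globins, Lcn2 and Lyz2, were added after the data had been seen. Alternatives covered the offset, the normalisation, the variance prior, array weights, the probe sets and genes tested, and each array left out. Arrays of the same number did not deviate together (r of -0.24 to 0.05 over 9 pairs, against -0.15 to 0.19 over 18 pairs of different number). The main fit held no pairing, although a low r cannot show that the samples were unpaired by design. No read depth exists for arrays, and their number limits the precision.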

Additional observations from a re-analysis of the deposited data

Results flagged for a closer look

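Globin transcripts lie outside the 18820 genes compared, because their probe sets are annotated to several genes. The alpha globin probe set 10375058 was 0.55 higher on the log2 scale in Surgery than in Control, and its 3 Surgery arrays all lay above its 3 Control arrays. Without Surgery replicate 2 the difference was 0.36. Its deposited signal was 1872, 4266 and 2468 in Surgery replicates 1, 2 and 3, against 2385, 1682 and 1497 in the Control replicates. The difference did not pass the adjusted test (adjusted p = 0.875 in limma over all probe sets), and its nearest Surgery and Control arrays stood at 11.09 and 11.08. The endothelium list was also higher in Surgery, and its part in this difference was not tested.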

How the results depend on the processing

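Of 24 member differences, recomputed 430 times under the alternatives, 408 kept their sign and 1 passed the adjusted test: with each array scaled to one median, 1 member, Alas2, was called between Surgery and Control. Over all genes, Surgery against Control had 0 calls, but 37 with scaling to one median, 42 with no normalization and 0 to 169 with 1 array left out, the 169 without Control replicate 1. Surgery+Maresin1 against Control had 16 calls, but 38 with scaling to one median, 43 with no normalization, 0 without the trend in the variance prior, 0 with the replicate block, 0 with only the 2 groups compared, 0 over all probe sets, 4 with Control replicate 1 as the sole control, and 0 to 245 with 1 array left out, the 245 without Control replicate 1. Surgery+Maresin1 against Surgery had 0 calls in all of these. The replicate block changed no call of a member. The median of the 4 red cell members between Surgery+Maresin1 and Surgery, -0.21, was -0.34 with an offset of 1, -0.10 with an offset of 64 and -0.25 to -0.11 with 1 array left out. Signs turned with no normalization for S100a9 between Surgery and Control (-0.0374) and, between Surgery+Maresin1 and Surgery, for S100a9 (0.066) and Ngp (0.0104); with cyclic loess for S100a9 between Surgery+Maresin1 and Surgery (0.0054); with array weights for Camp between Surgery+Maresin1 and Surgery (-0.0237) and S100a9 between Surgery+Maresin1 and Control (-0.0084); and with Control replicate 1 as the sole control for S100a8 between Surgery+Maresin1 and Control (0.21). The r of Ngp and Camp was 0.44 with no normalization. With 1 array left out, ranges that crossed 0 were, between Surgery and Control, -0.0762 to 0.134 for S100a9; between Surgery+Maresin1 and Surgery, -0.0379 to 0.175 for Camp, -0.0516 to 0.0153 for Fech and -0.12 to 0.12 for S100a9; and, between Surgery+Maresin1 and Control, -0.11 to 0.11 for Camp, -0.128 to 0.0251 for Epb42, -0.12 to 0.10 for S100a8 and -0.0658 to 0.117 for S100a9. The r of Alas2 and Slc4a1 spanned -0.0167 to 0.834 and that of Ngp and Camp -0.613 to 0.047. The causes of these changes were not tested, apart from the smaller number of arrays in those that leave some out. Slc4a1, Epb42 and the 4 neutrophil members have no value where only genes above the olfactory receptor level are tested, since they lie below it. Signals near background limit what 6 of the 8 genes can show.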
